A study of Mus musculus with 6 samples.

Results

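Microglia that survey the healthy brain carry a set of transcripts, often called the homeostatic signature, by which they are told apart from other macrophages. The 9 genes described here belong to that signature and were taken by symbol from the count table of 46095 gene symbols: P2ry12, P2ry13, Gpr34, Cx3cr1, Siglech, Selplg, Tmem119, Olfml3 and Sall1. They were measured in BV2 cells, an immortalized mouse microglial line. The CON group was left untreated, and the sTREM-1 group received the recombinant soluble form of triggering receptor expressed on myeloid cells-1 at 1 μg/mL for 6 h. The table held 3 libraries of total RNA from each group, fewer than the number of cultures given in the methods of the study. The comparison asks what sTREM-1 changed in BV2 cells, and BV2 is 1 transformed line grown without neurons or astrocytes, so its levels are not those of microglia in the brain. The labels number the libraries but do not say whether each came from a separate culture, so the p-values below measure the spread between libraries, which may be technical.

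The signature depends on signals from the brain. TGF-beta acts through SMAD proteins, and together with the myeloid factors PU.1, IRF8 and MEF2C it keeps the program on, while SALL1 is a transcription factor that within the macrophage lineage marks microglia. Most of the other members are surface proteins. P2RY12 and P2RY13 are receptors for ADP that couple to inhibitory G proteins, and P2RY12 steers microglial processes towards damaged tissue. CX3CR1 is the receptor for the neuronal chemokine fractalkine, GPR34 responds to lysophosphatidylserine, Siglec-H is a lectin that signals through the adaptor DAP12, and PSGL-1, encoded by Selplg, is a ligand of selectins. TMEM119 is a membrane protein used to mark resident microglia, and OLFML3 is a secreted glycoprotein. Loss of P2RY12, CX3CR1 and TMEM119 is commonly seen when microglia are activated or are placed in culture.

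The promoters of 3 members with a positive log2 fold change are shown here because these receptor genes were the ones of few counts whose values were higher after sTREM-1. The sequences are the 250 bases before the transcript start, 5′ to 3′ on the gene's strand, from RefSeq on the mouse build GRCm38.p6, and capitals mark AGGAAG, the core bound by PU.1 and other ETS factors.
P2ry12, chr3:59262986-59263235, minus strand: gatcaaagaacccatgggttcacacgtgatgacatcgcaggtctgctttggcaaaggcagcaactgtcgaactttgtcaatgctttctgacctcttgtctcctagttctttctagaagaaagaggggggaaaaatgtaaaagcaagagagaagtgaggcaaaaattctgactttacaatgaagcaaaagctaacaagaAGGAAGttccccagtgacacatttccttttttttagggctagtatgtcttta
P2ry13, chr3:59210883-59211132, minus strand: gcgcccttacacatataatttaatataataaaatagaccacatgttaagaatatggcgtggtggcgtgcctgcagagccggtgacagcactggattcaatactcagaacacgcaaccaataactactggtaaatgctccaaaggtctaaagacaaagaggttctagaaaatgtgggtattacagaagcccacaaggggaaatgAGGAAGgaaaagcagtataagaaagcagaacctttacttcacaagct
Cx3cr1, chr9:120068297-120068546, minus strand: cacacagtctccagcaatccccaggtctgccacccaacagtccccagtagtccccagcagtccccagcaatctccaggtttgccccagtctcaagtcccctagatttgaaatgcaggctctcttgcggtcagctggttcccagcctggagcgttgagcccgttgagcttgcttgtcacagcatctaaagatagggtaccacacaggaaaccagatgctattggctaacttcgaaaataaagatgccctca
P2ry12 and P2ry13 lie next to each other on chromosome 3, and each had 1 AGGAAG on the gene's strand, whose first base stood 52 and 47 bases before the start. The window of Cx3cr1 held none on either strand. AGGAAG on either strand was found in 29.5% of the 32851 promoter windows of the table, so a match is common. The SMAD motif CAGAC was found once in P2ry12 and once in Cx3cr1, both on the opposite strand, and not in P2ry13, and it was in 42.2% of all windows. The AP-1 motif TGANTCA was in 6.7% of all windows and in none of these 3 on either strand. Of the 9 members, 6 had a promoter in the table, and Tmem119, Gpr34 and Selplg did not.

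The libraries held 40070633 to 45877107 counts, so that 3 counts correspond to 0.0657 to 0.0756 CPM (counts scaled to library size, after TMM scaling). The cells had the profile of myeloid cells. Of 11 general myeloid markers, 10 were above 1 CPM, and their summed level was 6429 to 6515 CPM in the CON group and 6636 to 6797 CPM after sTREM-1. These markers did not move together. Of the 10 tested, 3 were higher, 2 were lower and 5 did not pass, where 16.5% of all tested genes were higher and 14.1% lower. Csf1r averaged 521 CPM in CON and 753 CPM in sTREM-1 libraries, while Lyz2, the most abundant, averaged 3048 and 3038 CPM. The remaining marker, Aif1, which encodes IBA-1, was at 0 in all libraries. Summed markers of peripheral and border macrophages, a list of 8, were 28.0 to 32.3 CPM in CON and 26.5 to 31.5 CPM in sTREM-1 libraries. Most came from Ms4a7, with 19.7 ± 1.92 and 17.4 ± 1.84 CPM in the 2 groups (SD, n = 3 per group). F13a1 averaged 6.84 and 7.84 CPM and Mrc1 2.70 and 2.98 CPM, while Ly6c2 and Cd163 were at 0. Of this list 4 genes were tested and none passed. Summed markers of astrocytes, fibroblasts, endothelial cells and lymphocytes were below 3 CPM in every library. Those of oligodendrocytes were 5.63 to 7.94 CPM with Mog at 0, and those of neurons were 26.4 to 31.5 CPM, nearly all from Syn1, with Rbfox3 at 0. Syn1 was lower after sTREM-1 (log2 fold change -0.21, edgeR adjusted p = 0.00283), as were 14.1% of all tested genes. No tested gene of the oligodendrocyte, astrocyte, fibroblast and endothelial lists passed. The part of these cell types in the results was not tested.

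Against this myeloid background the microglial signature was sparse. Of the 9 genes, 3 had no count in any library and 6 were detected, and all 6 passed the filter on low counts with at least 10 counts in every library. Taking at least 1 CPM in every library of a group as expressed, 4 genes were expressed: Selplg, Tmem119 and Olfml3 in both groups, and Cx3cr1 only in the sTREM-1 group, where its lowest library had 1.23 CPM against a lowest CON library of 0.806 CPM. P2ry12 and P2ry13 missed this level in at least 1 library of each group. With 0.5 CPM as the level the number was 6, and with 5 CPM it was 1, Selplg.

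Selplg alone held 91.6% of all counts of the 9 genes. Its mean of 72.5 CPM was higher than that of 75.9% of the 14120 tested genes. The other 5 detected genes had means between 0.897 CPM (P2ry12) and 1.65 CPM (Olfml3), each above at most 19.5% of the tested genes. These levels, not scaled to transcript length, stood far below those of some other genes enriched in microglia. Among those were Trem2 with 122 CPM and Csf1r with 637 CPM, and Csf1r is also a general myeloid marker. Other microglial genes were as low, such as Fcrls with 0.552 CPM. Of the 40 other homeostatic genes described below, 26 had a mean of at least 1 CPM.

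**Figure D1:**
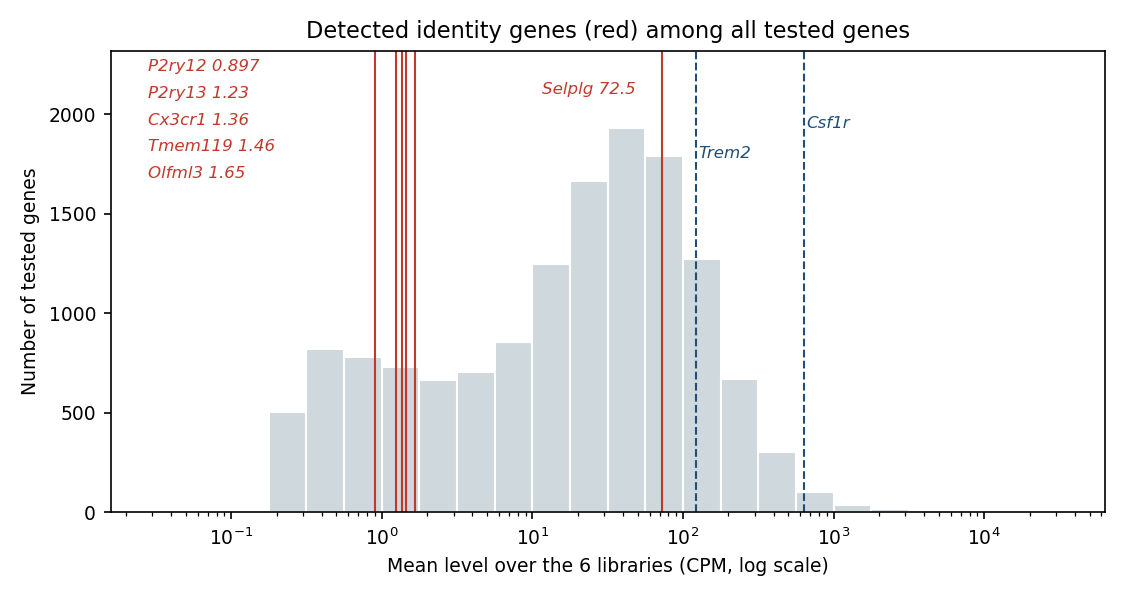
Number of tested genes by mean level over the 6 libraries, in CPM on a log scale. Red lines mark the 6 detected signature genes with their mean CPM and dashed blue lines mark Trem2 and Csf1r. Selplg lies in the main body of expressed genes, and the other 5 lie between 0.897 and 1.65 CPM in the low shoulder.

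Levels of different genes are compared here per kilobase of the longest principal protein-coding transcript in GENCODE M21. In the CON group Selplg came first with 35.1 ± 1.78 CPM per kb (SD, n = 3), 53.6 times the next gene. Tmem119 followed with 0.654 ± 0.0649 CPM per kb (SD, n = 3), and its 3 libraries lay above all those of Olfml3, the third, with 0.368 ± 0.114 CPM per kb (SD, n = 3). Olfml3 and the next genes, P2ry13 with 0.351 ± 0.0874, P2ry12 with 0.285 ± 0.0688 and Cx3cr1 with 0.210 ± 0.0325 CPM per kb (SD, n = 3 per group), each overlapped the next in this order, so their order is within the spread between libraries. The transcript lengths used were 1855 bp for Selplg, 2242 bp for Tmem119, 5465 bp for Olfml3, 2528 bp for P2ry13, 2344 bp for P2ry12 and 4493 bp for Cx3cr1, and a shorter isoform would raise a gene's value in proportion.

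Sall1, Siglech and Gpr34 had 0 counts in each of the 6 libraries. At this depth that allows up to 3 counts, or 0.0756 CPM in the shallowest library, and no comparison between the groups could be made. Of the 20463 protein-coding genes matched to RefSeq, 32.1% were at 0, and a whole stretch of chromosome 17 was among them. Because of that stretch, a 0 in this table is not by itself a sign of a silent gene. Aif1 stood in a run of 25 neighbouring genes at 0, from Vwa7 to Atp6v1g2, which includes Bag6 and Csnk2b, genes that nearly every cell uses. The run at 0 held 2 genes at Sall1, which has Tox3 beside it, and 1 gene each at Siglech and Gpr34. Of the 10 nearest protein-coding genes, 8 had counts around Sall1, 8 around Siglech and 6 around Gpr34. Some of these counts were few, such as a total of 1 for Luzp2 near Siglech and 5 for Gpr82 near Gpr34. The closest counted neighbours included Cyld beside Sall1, with a total of 18370 counts, Tubgcp5 beside Siglech, with 6477, and Cask, within which Gpr34 lies on the opposite strand, with 7102. Sequence shared with other genes was small. Sall1 and Gpr34 transcripts had no stretch of 50 bases in common with a transcript of another gene, on either strand. For Siglech the shared stretches came to 0.3% on the same strand and 0.4% on the opposite strand. The annotation used for the counting is not known. Whether it lost reads of these 3 genes, or of the other genes at 0 named below, was not tested. Sall3, a relative of Sall1, averaged 4.19 ± 0.767 CPM without and 4.35 ± 0.703 CPM with sTREM-1 (SD, n = 3 per group) and did not pass (edgeR adjusted p = 0.840).

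The signature genes that passed the test after sTREM-1 were all higher. Of the 6 tested genes, 3 were higher, none was lower and 3 did not pass an adjusted p-value of 0.05 in edgeR's quasi-likelihood test. Selplg, Cx3cr1 and P2ry13 were the genes that rose. In RNA from a whole culture, more cells with a transcript and more of it per cell cannot be told apart. Among all tested genes 30.5% passed, 16.5% as higher and 14.1% as lower, so the number is read against a background in which many small changes passed. That background is lower for genes of few counts. Of the 2960 tested genes with a mean under 2 CPM, a level chosen after the values were seen, 4.56% passed and 1.59% were higher. The median log2 fold change of the 6 genes was 0.52, against -0.00 over all tested genes. It rests on 6 values from -0.64 to 0.90, mostly of genes of few counts, and was not set against genes of similar level.

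Selplg, which encodes the selectin ligand PSGL-1, had 62.9, 63.4 and 68.9 CPM in CON replicates 1 to 3 and 74.8, 79.5 and 85.5 CPM in sTREM-1 replicates 1 to 3. Every sTREM-1 library lay above every CON library. The means were 65.1 ± 3.30 and 79.9 ± 5.37 CPM (SD, n = 3 per group), a 1.23-fold rise with a log2 fold change of 0.30 (standard error (SE) 0.04, 95% interval 0.21 to 0.39, edgeR adjusted p = 4.2e-06). This was the smallest fold change of the 3 genes that rose and the most precisely measured. It passed in all 12 other fits, with log2 fold changes from 0.24 to 0.34.

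Counts of Cx3cr1, the fractalkine receptor gene, were 33, 45 and 38 in CON replicates 1 to 3 and 56, 93 and 75 in sTREM-1 replicates 1 to 3. On the CPM scale these were 0.806, 1.097 and 0.931 against 1.23, 2.18 and 1.89, so the groups did not overlap. The mean rose from 0.945 ± 0.146 CPM in CON to 1.77 ± 0.490 CPM in sTREM-1 libraries (SD, n = 3 per group), which is 0.90 on the log2 scale (SE 0.28, 95% interval 0.32 to 1.48, edgeR adjusted p = 0.0156). The value was close to that of P2ry13 (0.84), and the order of both turned without CON replicate 1 and without sTREM-1 replicate 3. With so few counts the call depended on single libraries. The adjusted p was 0.0655 without CON replicate 1, 0.116 without sTREM-1 replicate 2 and 0.0570 without sTREM-1 replicate 3, with the log2 fold change between 0.71 and 1.11 over all 6 fits that left out 1 library. In GENCODE the Cx3cr1 gene overlaps Wdr48, Gorasp1, Ttc21a and Csrnp1, which had 458 to 22527 counts in all against 340 for Cx3cr1. None of these 4 passed the test, with log2 fold changes of -0.00, -0.06, 0.39 and -0.09. Whether their reads were mixed with those of Cx3cr1 was not tested.

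The ADP receptors P2ry13 and P2ry12 had similar fold changes, and 1 of the 2 passed. Counts of P2ry13 were 45, 27 and 37 in CON replicates 1 to 3 and 84, 82 and 39 in sTREM-1 replicates 1 to 3. The third sTREM-1 library, at 0.983 CPM, lay within the CON range of 0.658 to 1.099 CPM, so the groups overlapped. The mean rose from 0.888 ± 0.221 CPM in CON to 1.58 ± 0.520 CPM in sTREM-1 libraries (SD, n = 3 per group), which is 0.84 on the log2 scale (SE 0.31, 95% interval 0.21 to 1.46, edgeR adjusted p = 0.0379). The call was lost without CON replicate 2 (adjusted p = 0.151), without CON replicate 3 (adjusted p = 0.0792), without sTREM-1 replicate 1 (adjusted p = 0.154) and without sTREM-1 replicate 2 (adjusted p = 0.176).

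Counts of P2ry12 were 24, 35 and 23 in CON replicates 1 to 3 and 63, 38 and 44 in sTREM-1 replicates 1 to 3. In CPM these were 0.586, 0.853 and 0.563 against 1.38, 0.891 and 1.11, and the groups did not overlap, although the second library of each group nearly met. On the log2 scale sTREM-1 minus CON was 0.75 (SE 0.34, 95% interval 0.06 to 1.45), with an unadjusted p-value of 0.0344 and an adjusted p of 0.0955 in edgeR's quasi-likelihood test, so it did not pass. In all 12 other fits the value stayed positive, between 0.58 and 0.97, with an adjusted p from 0.0591 to 0.325. Of the signature genes, 3 had groups that did not overlap, Selplg, Cx3cr1 and P2ry12, all with the sTREM-1 libraries higher, against 21.3% of all tested genes with sTREM-1 higher, 19.4% with sTREM-1 lower and 40.7% in either direction.

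Reads of P2ry12 and P2ry13 could be mixed with those of Med12l, a Mediator subunit gene that spans both on the opposite strand, since the strand setting of the counting is not given in the sources used here. Whether they were mixed was not tested. Counts of Med12l were 365, 354 and 374 in CON replicates 1 to 3 and 256, 289 and 231 in sTREM-1 replicates 1 to 3, and its level fell by 0.55 on the log2 scale (SE 0.11, edgeR adjusted p = 0.00015). The transcripts of P2ry12 and P2ry13 shared no stretch of 50 bases with a transcript of another gene. Of the other receptors in this cluster, P2ry14, the receptor for UDP-glucose, averaged 1.26 ± 0.0114 CPM without and 1.44 ± 0.393 CPM with sTREM-1 (SD, n = 3 per group) and did not pass (log2 fold change 0.20, adjusted p = 0.647). Of other genes at this locus, Gpr171 had 1 count in all libraries together and Igsf10 had 8.

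**Figure D2:**
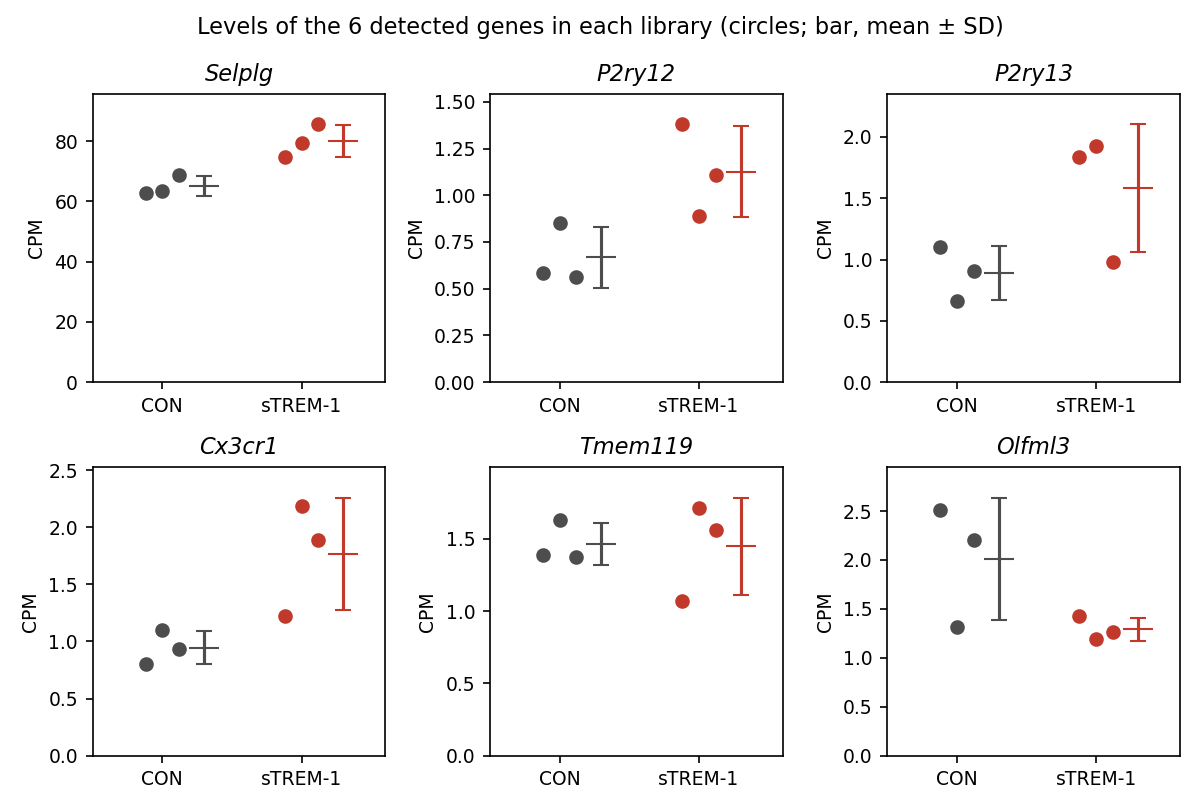
CPM of the 6 detected signature genes in each library, with each panel's axis starting at 0. Circles are libraries, in order of replicate number, and bars show the mean ± SD of 3 libraries. The sTREM-1 libraries of Selplg, Cx3cr1 and P2ry12 all lie above the CON libraries, those of P2ry13 and Tmem119 overlap with them, and for Olfml3 the lowest CON library, at 1.32 CPM, lies within the sTREM-1 range.

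Tmem119 and Olfml3 had negative log2 fold changes and did not pass. Counts of Tmem119 were 57, 67 and 56 in CON replicates 1 to 3 and 49, 73 and 62 in sTREM-1 replicates 1 to 3, or 1.47 ± 0.146 and 1.45 ± 0.335 CPM (SD, n = 3 per group). The sTREM-1 libraries lay on both sides of the CON libraries. The log2 fold change was -0.02 (SE 0.26, edgeR adjusted p = 0.970), and its 95% interval ran from -0.56 to 0.52, so that changes of up to about these sizes cannot be told from none with 3 libraries at this level. The sign turned positive without CON replicate 2 and without sTREM-1 replicate 1, at 0.06 and 0.16. Selplg, which rose, is the next gene on one side of it on chromosome 5.

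Counts of Olfml3 were 103, 54 and 90 in CON replicates 1 to 3 and 65, 51 and 50 in sTREM-1 replicates 1 to 3. The second CON library, at 1.32 CPM, lay within the sTREM-1 range of 1.196 to 1.42 CPM, and the other CON libraries, at 2.52 and 2.20 CPM, lay above it. The difference was -0.64 on the log2 scale (SE 0.26, 95% interval -1.17 to -0.10), with an unadjusted p of 0.0216 and an adjusted p of 0.0658 in edgeR's quasi-likelihood test, so it did not pass. Without CON replicate 2 the log2 fold change was -0.87 and the adjusted p was 0.0126. At an unadjusted p under 0.05, which 38.7% of all tested genes met, 4 of the 6 signature genes were higher and 1, Olfml3, was lower.

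**Figure D3:**
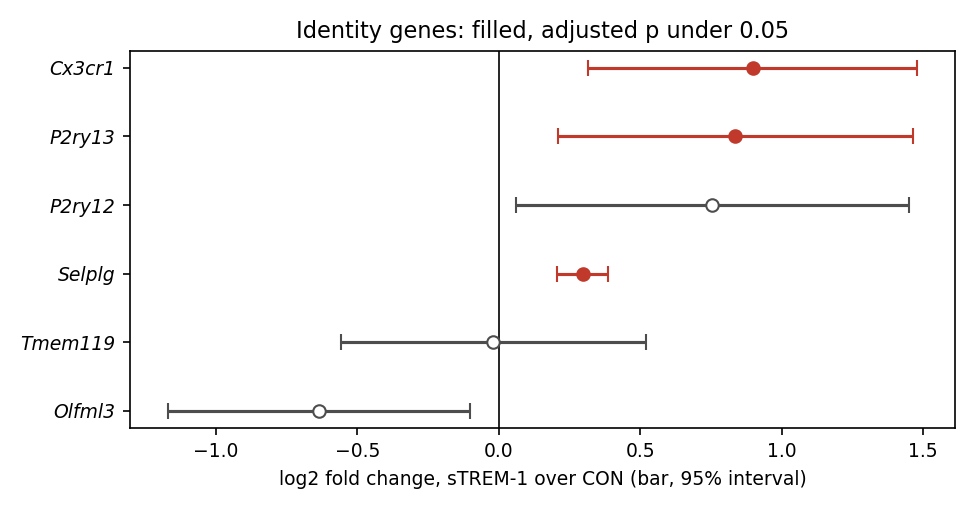
Log2 fold change of sTREM-1 over CON for the 6 tested signature genes, with 95% intervals from edgeR's quasi-likelihood fit, unadjusted for the number of genes. Filled points had an adjusted p under 0.05. The interval of Selplg, 0.21 to 0.39, is the narrowest, and that of Tmem119 spans 0.

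**Figure D4:**
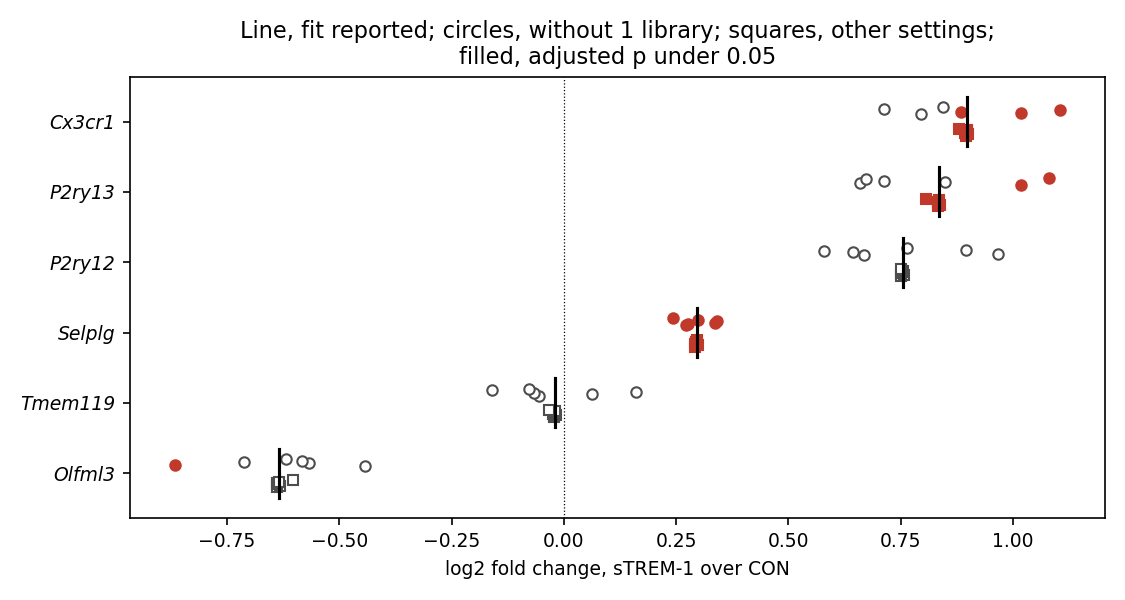
Log2 fold change of each signature gene in the reported fit (line), in 6 fits that each left out 1 library (circles) and in 6 fits with another scaling, filter, tool or a replicate block (squares). Filled points had an adjusted p under 0.05. Selplg was called in all 12, Cx3cr1 in 9, P2ry13 in 8, Olfml3 in 1 and P2ry12 and Tmem119 in none.

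Genes whose pattern was most like that of 2 signature genes, by Pearson's r of log2 CPM over the 6 libraries, are given as a description. For Selplg, the called gene of highest level, they were Slc6a6, Mboat1 and Adamts1, with r = 0.998, 0.998 and 0.996 and with log2 fold changes of 0.11, 0.36 and 0.15. For Cx3cr1, the called gene of largest fold change, they were Naip6, Lrp4 and Ech1, with r = 0.994, 0.991 and 0.990 and with log2 fold changes of 0.15, 0.23 and 0.13. The r was at least 0.95 for 225 genes with Selplg and for 78 genes with Cx3cr1, so that with 6 libraries such likeness is common.

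Other genes enriched in homeostatic microglia were examined in a list of 40, of which 29 were tested. Of these, 9 were higher, 3 were lower and 17 did not pass, against 16.5% higher and 14.1% lower among all tested genes. The median log2 fold change was 0.08, against -0.00 over all tested genes. The list was compiled from general knowledge and shares Csf1r, Itgam and Tyrobp with the general myeloid markers above. Its counts are therefore not those of genes particular to homeostatic microglia. Csf1r, the receptor on which microglia depend for survival, rose from 521 ± 3.13 CPM in CON to 753 ± 20.5 CPM in sTREM-1 libraries (SD, n = 3 per group), which is 0.53 on the log2 scale (SE 0.02, edgeR adjusted p = 2.9e-17). All 3 chains of complement C1q rose. C1qb and C1qc had log2 fold changes of 0.27 and 0.23, and C1qa, at 1.59 ± 0.335 CPM in the CON group and 2.55 ± 0.184 CPM after sTREM-1 (SD, n = 3 per group), had 0.68. The lysosomal protease gene Ctss, Golm1 and the lipid receptor gene Trem2 rose by 0.19, 0.17 and 0.14 on the log2 scale. Among the genes that fell were Hpgds, a prostaglandin D synthase (log2 fold change -0.33), and Rhob, a small GTPase gene (-0.20).

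Several genes of this list shared the low level of the signature. P2ry6, the UDP receptor that triggers phagocytosis in microglia, was named with C1qa after the values were seen. Counts of P2ry6 were 14, 39 and 23 in CON replicates 1 to 3 and 66, 73 and 47 in sTREM-1 replicates 1 to 3, with no overlap between the groups. The difference was 1.22 on the log2 scale (SE 0.34, edgeR adjusted p = 0.00652). Fcrls had 0.522 ± 0.295 CPM in CON and 0.583 ± 0.138 CPM in sTREM-1 libraries (SD, n = 3 per group) and did not pass (adjusted p = 0.828). Hpgd, Upk1b and Egr1 were at 0 in all libraries, and whether the counting lost their reads was not tested.

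Of 23 regulators that set up or maintain the signature, including the TGF-beta axis, 21 were tested. Of these, 3 were higher, 5 were lower and 13 did not pass, beside 30.5% called, 16.5% higher and 14.1% lower, of all tested genes. The median was -0.00 on the log2 scale. Mef2c rose from 50.4 ± 2.06 CPM in CON to 66.6 ± 1.23 CPM in sTREM-1 libraries (SD, n = 3 per group), which is 0.40 on the log2 scale (SE 0.04, edgeR adjusted p = 4.7e-09). Nrros, whose product presents latent TGF-beta1 on microglia, rose by 0.35 on the log2 scale, and Irf8 by 0.11. Smad3, which carries the TGF-beta signal to the nucleus, had 24.7 ± 1.40 CPM in the CON group and 17.8 ± 0.322 CPM after sTREM-1 (SD, n = 3 per group) and fell by 0.47 on the log2 scale (SE 0.07, edgeR adjusted p = 1.7e-06). Smad7, the inhibitory SMAD that TGF-beta induces, fell by 0.43. Of the 7 genes of TGF-beta1, its receptors and the SMADs, none was higher, 2 were lower and 5 did not pass, a share near the 30.5% called among all tested genes. The ligand gene Csf1 fell by 0.16, and the transcription factor gene Mef2a fell by 0.07. The call of Mef2a was near the threshold, with an adjusted p of 0.0487, and was lost whichever library was left out, at adjusted p from 0.0560 to 0.157, and with no filter on low counts (adjusted p = 0.0901). Spi1, which encodes the PU.1 whose motif is marked above, did not pass, with 0.07 (adjusted p = 0.0793).

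The partners of the receptors were examined in a list of 33 ligands, adaptors, G proteins and modifying enzymes, of which 27 were tested. Of these, 9 were higher, 5 were lower and 13 did not pass, where 30.5% of all tested genes passed, 16.5% as higher and 14.1% as lower. The median was 0.04 on the log2 scale, against -0.00 over all tested genes. The grouping by role within this list was made after the values were seen. The fractalkine gene Cx3cl1 had no count in CON replicates and 1, 0 and 4 counts in sTREM-1 replicates and was not tested, while Adam17, whose protease sheds fractalkine, rose by 0.29 on the log2 scale. Arrb1, an arrestin gene that turns off such receptors, rose from 142 ± 3.24 CPM in CON to 212 ± 3.10 CPM in sTREM-1 libraries (SD, n = 3 per group), which is 0.58 on the log2 scale (SE 0.03, edgeR adjusted p = 5.0e-16). Of the inhibitory G protein alpha subunits, Gnai2 rose by 0.22, Gnai3 fell by 0.26 and Gnai1 was at 0 in all libraries, as was Nt5e, the ectonucleotidase gene that makes adenosine. Among the gamma subunits, Gng5 fell by 0.24 and Gng2 fell by 0.19.

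Enzymes that decorate PSGL-1, the product of the most abundant signature gene, went both ways. Tpst1 and Tpst2, which add the sulfate that binding to P-selectin needs, rose by 0.37 and 0.23 on the log2 scale. St3gal6, a sialyltransferase gene, fell from 14.8 ± 1.07 CPM in CON to 10.3 ± 0.553 CPM in sTREM-1 libraries (SD, n = 3 per group), which is -0.53 on the log2 scale (SE 0.09, edgeR adjusted p = 1.7e-05), and Gcnt1, which starts the branched glycan, fell by 0.17. St3gal4, named after the values were seen, was higher by 0.26 with an adjusted p of 0.0486, near the threshold, and its call was lost with RLE size factors (adjusted p = 0.0515), with either other filter, with DESeq2 and with edgeR's exact test, and without each single library other than CON replicate 3. Fut7, the fucosyltransferase gene for the selectin epitope, had 1.21 ± 0.102 CPM in CON and 1.24 ± 0.134 CPM in sTREM-1 libraries (SD, n = 3 per group) and did not pass (adjusted p = 0.943), and Fut4 was at 0 in all libraries. For GPR34, whose gene was at 0, Abhd12, which degrades its lipid ligand, rose by 0.27. Abhd16a, which makes that lipid, was at 0, but lies in the stretch of chromosome 17 described above. For P2RY12, the potassium channel gene Kcnk13 and the ADP-degrading Entpd1 did not pass, with log2 fold changes of -0.09 and 0.04. The adaptor gene Tyrobp, which encodes the DAP12 that Siglec-H uses, had 300.4 ± 1.07 CPM in CON and 293 ± 5.03 CPM in sTREM-1 libraries (SD, n = 3 per group) and did not pass (adjusted p = 0.261).

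**Figure D5:**
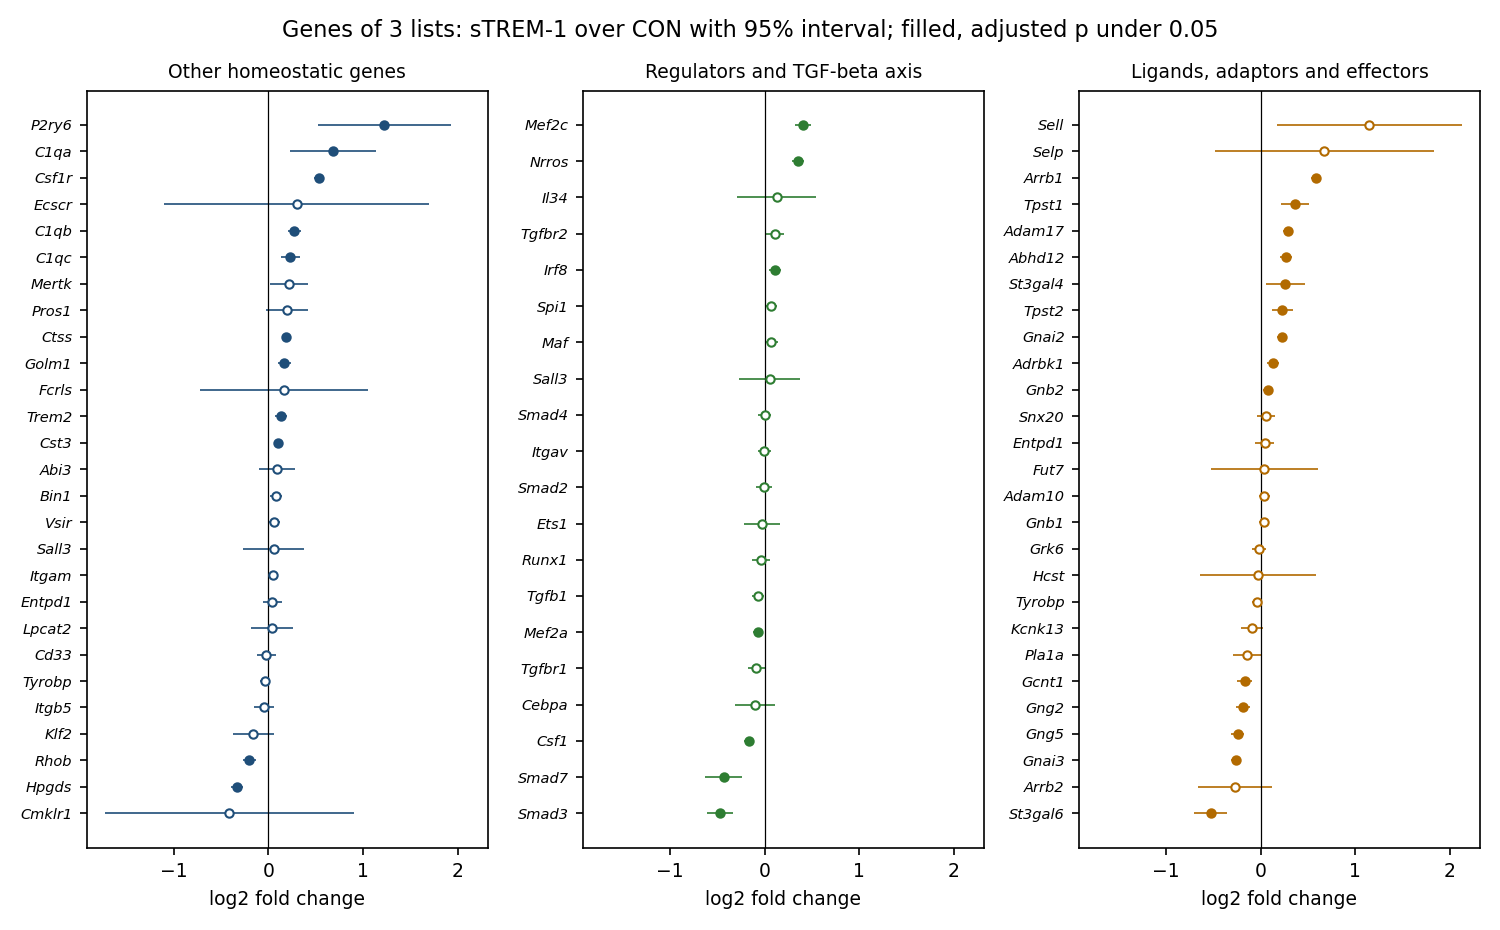
Log2 fold change of sTREM-1 over CON with 95% intervals for tested genes of the 3 lists, which are other homeostatic genes, regulators with the TGF-beta axis, and ligands, adaptors and effectors. A few tested genes are not drawn. Filled points had an adjusted p under 0.05. P2ry6 is at the top of the first panel with 1.22, Smad3 and Smad7 are at the bottom of the second, and St3gal6 is at the bottom of the third. Sall3 is in the first 2 panels, and Tyrobp and Entpd1 are in the first and the last.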

How the data were processed

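The 6 columns of the table, 3 CON and 3 sTREM-1 libraries, are raw counts that the authors deposited for each symbol. The methods of the study state that expression was quantified with RSEM. The submitters' processing notes name HISAT2 2.0.4 and the human builds hg19 and GRCh38, while the symbols are those of mouse. The mouse build, annotation and strand setting are not given in the sources used here. Such counting can lose reads of near-identical or overlapping genes. Of the 46095 symbols, 41483 were found in RefSeq.

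After a filterByExpr step (10 counts as minimum) and TMM scaling, 14120 genes were fitted together in edgeR 4.0.16 (R 4.3.3). The quasi-likelihood test had no covariate, and p-values were adjusted by Benjamini-Hochberg. The procedure was tested on simulated data. Each SE and 95% interval was derived from the F statistic of the gene. CPM used the filtered library sizes after TMM, and correlations used log2 CPM with a prior count of 2. For a single value, 3 libraries against 3 allow no exact permutation p under 0.1, so p-values come from the fit across genes. The limit of 3 counts covers counting error only, while the intervals rest on the spread between libraries.

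The chi-square per gene was 3.46 to 5.04 within groups and 20.6 to 22.6 between them, so no library was a copy of another. The members and lists were chosen with earlier results of these data known. Every member is named. From the other lists at most 6 called genes per direction of smallest p, and genes at 0, are named, and for the 2 called members of highest level and largest change the 3 genes most like them. P2ry12 locus neighbours are named as well. Some genes of these lists count in the totals but are not reported here. Genes that did not pass were named for their role after the values were seen, like others so marked. Alternatives were RLE size factors, other filters, each library left out, a replicate block, DESeq2 1.42.0, the exact test of edgeR, an unadjusted threshold and other levels for calling a gene expressed.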

Additional observations from a re-analysis of the deposited data

How the results depend on the processing

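Of the 147 values recomputed under other settings, 134 kept their direction and their side of the threshold or, for counts, stayed within 1.5 times. A gene that again did not pass is included there, as P2ry12 was in all 12 other fits. The number of signature genes called, 3, was 3 with RLE size factors, with either other filter, with DESeq2, with edgeR's exact test and with the replicate block, and 5 at an unadjusted p under 0.05. It ran from 1 to 3 across the fits that left out 1 library, and was 1 without sTREM-1 replicate 2. The 3 called without CON replicate 2 were not the same genes, with 2 higher and 1, Olfml3, lower. The number of signature genes expressed, 4, was 1 at 5 CPM and ran from 4 to 5 without single libraries. Tmem119 turned positive without CON replicate 2 (0.06) and without sTREM-1 replicate 1 (0.16), and ran from -0.16 to 0.16 over those fits. The counts of the 3 other lists ran from 11 to 12, from 6 to 8 and from 12 to 14 without single libraries, and that of all genes from 3608 to 3863.

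Same-numbered libraries had deviations from their group means that correlated at -0.02 on average across genes, so they were treated as sharing only a number. The replicate block gave 4613 called genes in place of 4312, and 13, 8 and 14 in the 3 lists in place of 12, 8 and 14. Depth limits 5 of the 6 detected genes, which had 23 to 103 counts per library, and calls among them depended on single libraries.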
